A study of Drosophila melanogaster with 20 samples.

Results

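Among the first introns of genes regulated in rasV12scrib1 mosaic eye/antennal discs (EAD), 589 were of intermediate length, from 1000 bp to just under 10 kb, and had both splice sites to themselves. They were chosen from the deposited list of first introns by length and by the absence of any other distinct intron on the same chromosome with the same start or the same end. They made up 12.4% of the 4749 distinct introns of the list and 41.7% of the 1412 distinct introns in that range of length. The other 823 introns of 1 to 10 kb shared an end with another intron. They are named single introns of 1 to 10 kb here.

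The lists record the comparison of 4 libraries of the genotype rasV12FRT82Bscrib1 with 4 libraries of the FRT82B control, out of 20 RNA libraries of 6 genotypes. Both genotypes were made with MARCM, in which an eye-specific recombinase (ey-FLP1) makes the arm distal to FRT82B homozygous in clones. An actin promoter then drives GAL4, and with it GFP, in clone cells that have lost the GAL80 repressor (act>y+>GAL4, UAS-GFP; Tub-GAL80). In the rasV12FRT82Bscrib1 discs the clones expressed oncogenic Ras (RasV12) and lost the polarity gene scribble through the allele scrib1, while the FRT82B clones carried neither lesion. The discs came from larvae of the third instar and were sequenced whole, so clone cells and their neighbors were read together. Rows consist of positions in dm3 alone. They name no gene and carry no direction of change, and expression per library and its replicate error were not analysed here. All differences described here are therefore between regions of 1 comparison, and neither introns nor transcripts are replicates of a genotype.

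Fly introns fall broadly into a large class just long enough to be spliced and a long tail. The first intron is often the longest of a transcript, and in flies, as in other animals, first introns are known to hold enhancers and binding sites for transcription factors. In the study, the first introns and the 5 kb upstream of each start site were searched for motifs of AP-1, the dimer of basic leucine zipper proteins such as Fos and Jun, of the ETS-domain factor Ets21c, and of Ftz-F1, a nuclear receptor. A first intron whose splice sites are used by no other listed intron shares its donor and its acceptor with no other intron of the list, although it can still overlap one. No sequence in dm3 was used here, so no bases and no motif are given.

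Within their range the single introns were mostly at the short end. Their lengths reached 9871 bp, the median was 2620 bp and the middle range, between the quartiles, ran from 1566 to 4580 bp. There were 220 introns (37.4%) under 2 kb, 121 from 2 to 3 kb, 75 from 3 to 4 kb and 45 from 4 to 5 kb. The 128 introns of 5 kb or more were 21.7% of the number and 46.0% of the summed length. In all, the single introns covered 1.974 Mb, which was 20.7% of the 9.543 Mb under any listed first intron. For a start site with 1 such intron, the intron made up a median of 34.4% of the sequence to be scanned, upstream region included, with a range of 16.7 to 66.4%.

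**Figure D1:**
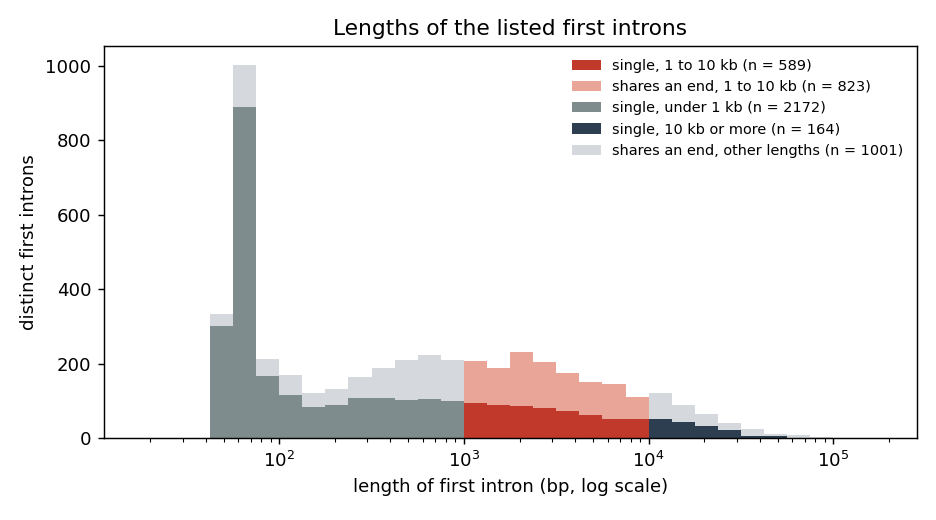
The histogram shows the number of distinct first introns (y axis) by length in bp (x axis, log scale), stacked by whether an intron shares an end and by its length class. The 589 single introns of 1 to 10 kb (dark red) lie beside 823 of the same range that share an end (light red), and the peak near the left belongs to the 2172 single introns under 1 kb.

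The limits of length do not fall in gaps of the distribution. On the inside of the lower limit lay 3 introns of 1000 bp each, on the outside 3 of 994, 996 and 997 bp. The 3 longest had 9825, 9831 and 9871 bp, and the next longer single introns had 10010, 10048 and 10117 bp. The share of distinct introns that were single went up and down over the range without a trend, from 45.1% of the introns of 1 to 2 kb to 32.5% of those of 6 to 7 kb and 52.8% of those of 7 to 8 kb.

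Most of these introns stood for 1 transcript of the list. Rows of the list are transcripts, and 409 of the 589 introns had 1 row and 180 had more, up to 58. The share with more than 1 row was 30.6% (95% Wilson confidence interval 27.0 to 34.4%). It was 14.3% (12.9 to 15.8%) for single introns under 1 kb and 39.0% (31.9 to 46.7%) for those of 10 kb or more. Over all distinct introns it was 18.7% (17.6 to 19.8%), and for introns of 1 to 10 kb that shared an end 21.5% (18.8 to 24.4%). The intervals cover counting error only and treat introns as independent, and no test was made between the classes.

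A few introns stood for many transcripts. On X, the intron at chrX:16416187-16421309 (minus strand, 5123 bp) was the first intron of 58 transcripts, all from 1 start site with a first exon of 138 bp. As paired, these transcripts share their first exon and first intron, and what lies downstream was not analysed here. The intron with the next highest number, 13 rows, lay on 2R and was 7797 bp long. It was followed by chr3R:12328894-12338685, on the plus strand, with 10 rows, a length of 9792 bp and a first exon of 371 bp, which is also the longest of these introns on 3R. On 3L the longest, chr3L:13885181-13894784 on the minus strand, had 8 rows, 9604 bp and a first exon of 1552 bp. Another intron with 8 rows, chrX:2279767-2281445 on the minus strand, was short, at 1679 bp, with a first exon of 252 bp. On 2L, chr2L:20312415-20322009 had 7 rows, 9595 bp and a first exon of 1196 bp. With such introns counted once per transcript, the median length over the 958 rows of the single introns was 2930 bp.

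Most introns with several transcripts had 1 start site. Pairing each intron row with the upstream region of its transcript gave the start site, the strand and the first exon. By this pairing 568 introns followed 1 start site, 20 followed 2 and 1 followed 3, so that 3.57% (2.34 to 5.39%) joined more than 1 start site to the same splice sites. The share was 3.41% (2.72 to 4.26%) for single introns under 1 kb and 3.05% (2.60 to 3.58%) over all distinct introns, so it was not particular to this range. Among the 180 introns with more than 1 row, 21 (11.7%, 7.76 to 17.2%) had more than 1 start site. Among these 21 introns the outermost start sites lay 1 to 788 bp apart, with a median of 315 bp, and in 4 of them within 10 bp. At chr2L:6701945-6708286, an intron of 6342 bp on the minus strand, first exons of 370 and 794 bp ended at the same donor. At chr2L:8973537-8974909, with 1373 bp, they had 67 and 519 bp, and at chr3L:7384620-7386692, with 2073 bp, 443 and 778 bp. The start sites of chr2L:8987288-8988935 were closer, with first exons of 247 and 352 bp, and this intron of 1648 bp lay wholly within listed upstream regions. At chr2L:9387891-9389828, an intron of 1938 bp on the plus strand, the first exons had 332 and 502 bp. In each of these 5 introns the list shows 2 start sites that lead to the same donor and acceptor.

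Seen from the start sites, most led to 1 listed first intron. The single introns had 606 start sites, of which 582 (96.0%) led to 1 listed first intron and 24 to more than 1, and 4 of the latter led to more than 1 single intron of this range. The rule itself favors this share, because introns of 1 start site that share a donor or an acceptor are not among the single ones. Start sites counted here and below are those of transcripts with a listed first intron, as others have no known strand. No other such site lay in the 5 kb upstream of 449 start sites (74.1%, 70.5 to 77.4%). Another start site on the same strand lay there for 99, and 1 on the other strand for 72. In 19 cases (3.14%) the start site on the other strand was within 1 kb, a head-to-head arrangement.

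First exons in front of these introns were longer at the median than those in front of short introns. Over the 589 introns the median first exon was 325 bp, the quartiles were 182 and 553 bp, and the extremes 5 and 3356 bp. For single introns under 1 kb it was 217.5 bp, and for those of 10 kb or more 453.5 bp. The 95% intervals of the medians, from order statistics, were 302 to 357 bp, 209 to 224 bp and 411 to 495 bp, and did not overlap. Inside the range the medians were 279 bp for introns of 1 to 2 kb, 348 bp for 2 to 3 kb, 318.5 bp for 3 to 5 kb and 400 bp for 5 to 10 kb. Neighboring classes overlapped widely in their quartiles, as the plot of first exons by intron length shows. Introns of 1 to 10 kb that shared an end had a median first exon of 202 bp (186 to 218 bp). All these first exons come from the pairing. Of the 958 rows of the single introns of 1 to 10 kb, 550 (57.4%) matched the later BDGP6 annotation in both intron and first exon length.

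**Figure D2:**
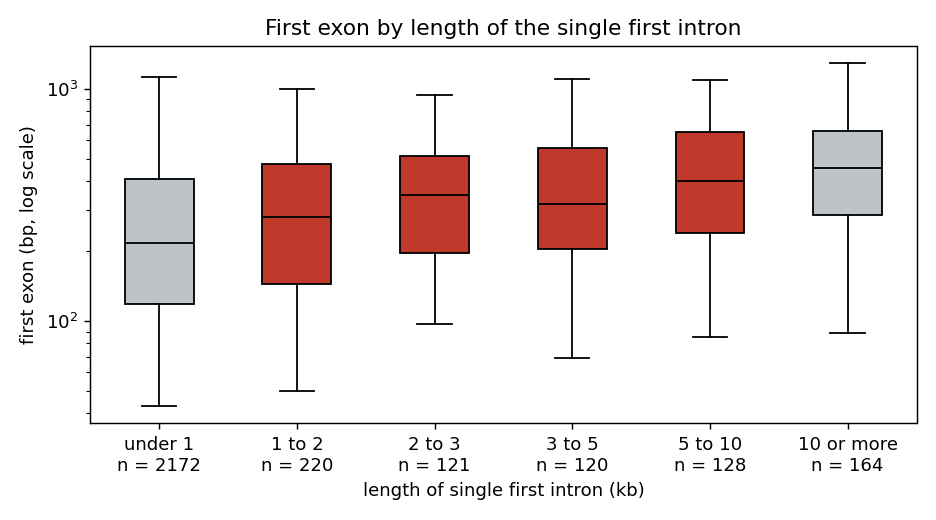
Boxes show the first exon length in bp (y axis, log scale) for single first introns in 6 classes of length (x axis, kb), with the median, the quartiles and whiskers at the 5 and 95% points. The 4 red boxes are the single introns of 1 to 10 kb, with medians of 279, 348, 318.5 and 400 bp, between 217.5 bp for shorter and 453.5 bp for longer introns.

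Whether an intron lies before or after the start codon was read from the BDGP6 annotation by comparing lengths, never positions. An annotated first intron of the same arm, strand and length was found for 562 of the 589 introns (95.4%). When the annotated lengths were shifted by 1 to 5 bp in either direction, 8.15 to 11.9% were found, so the listed lengths are exact and a match on the intron alone is often but not always the same intron. Requiring the first exon to have the same length too left 298 introns, of which 293 matched transcripts of a single gene. These 293 had a median length of 2383 bp, against 2884.5 bp for the other 296, and more often had several rows (37.5% against 23.6%), so they do not represent all single introns evenly.

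Of the 293 introns, 157 (53.6%, 47.9 to 59.2%) lay before the start codon, in the 5′ untranslated region. Another 131 (44.7%) lay after the start codon, and 5 belonged to noncoding transcripts. The stop codon was not checked, so any introns that follow it are counted with those after the start codon. The same share before the start codon was 18.4% (16.4 to 20.6%) for 1266 single introns under 1 kb, for which 77.1% lay after the start codon, and 70.8% (60.6 to 79.2%) for 89 of 10 kb or more. The intervals of the 3 classes did not overlap. With the intron length alone as the match, which placed more introns, 54.4% (50.04 to 58.77%) of 496 single introns of 1 to 10 kb and 63.6% (55.6 to 70.8%) of 151 of 10 kb or more lay before the start codon, and these intervals overlapped. Inside the range the share was 50.8% at 1 to 2 kb, 48.4% at 2 to 3 kb, 58.6% at 3 to 5 kb and 60.4% at 5 to 10 kb, and there the intervals overlapped. Introns of 1 to 10 kb that shared an end lay before the start codon in 74.9% (70.8 to 78.6%) of 470 cases, although many of these come from the same genes, 256 in all against 273 for the single introns. The interval of the single introns thus lay below that of introns in the same range of length with a shared splice site. Introns of 1 gene are not independent, and the difference was not tested.

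**Figure D3:**
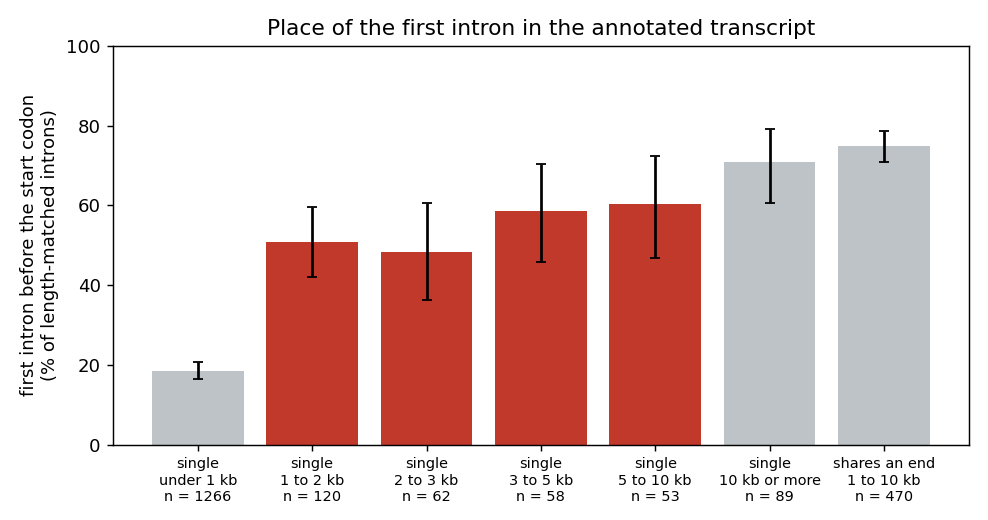
Bars give the percentage of length-matched first introns that lie before the start codon (y axis) in 7 classes of introns (x axis), with 95% Wilson confidence intervals. The 4 red bars, single introns of 1 to 10 kb, range from 48.4 to 60.4%, above the 18.4% of introns under 1 kb and below the 74.9% of introns of 1 to 10 kb that share an end.

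The first exon differed with the place of the intron. Before introns of the 5′ untranslated region it had a median of 240 bp (quartiles 140 and 381 bp). For introns that lay after the start codon it was 492 bp (290 and 730.5 bp). The introns themselves were of similar length, 2534 and 2341 bp at the median, with quartiles of 1657 and 4173 bp and of 1455.5 and 3696.5 bp. In 62.8% (57.1 to 68.1%) of the 293 the first intron was the longest, or the only, intron of its transcript. This was so for 50.3% of those in the 5′ untranslated region and 76.3% of those after the start codon. By the same match it was so for 59.2% (56.4 to 61.8%) of single introns under 1 kb. The share was 75.3% (65.4 to 83.1%) at 10 kb or more and 58.3% (53.8 to 62.7%) for introns of 1 to 10 kb that shared an end. All 3 intervals overlapped that of the 293. With the intron length alone as the match, the share was 64.3% (60.0 to 68.4%) for single introns of 1 to 10 kb. At 10 kb or more it was then 78.8% (71.6 to 84.6%), and these intervals did not overlap. The annotated transcripts had a median of 5 introns, and 27 of the 293 (9.22%) had no other intron. Among single introns under 1 kb the median was 2 and 34.3% had no other. An only intron is the longest by definition, so the shares of these classes are not on an equal footing.

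Sharing no splice site did not keep all of these introns apart from other listed regions. Another distinct first intron overlapped 63 of the 589 (10.7%, 8.45 to 13.4%), on the same strand for 52 and on the other strand for 12. The share was 4.19% (3.43 to 5.12%) for single introns under 1 kb and 14.0% (9.53 to 20.2%) for those of 10 kb or more. Over all distinct introns it was 42.1%, a difference that the rule itself favors, since an intron that shares an end overlaps another. Of the 589, 25 lay wholly inside another first intron, 18 held one and 27 overlapped one in part, some introns counting under more than 1 heading. By length, overlap was found for 24 of 220 introns of 1 to 2 kb (10.9%), 6 of 121 of 2 to 3 kb (4.96%), 15 of 120 of 3 to 5 kb (12.5%) and 18 of 128 of 5 to 10 kb (14.1%), without a steady trend.

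A listed start site of a transcript with a first intron lay inside 54 of the 589 introns (9.17%, 7.10 to 11.8%). The share was 2.30% for single introns under 1 kb, 12.2% (8.04 to 18.1%) for those of 10 kb or more and 16.7% over all distinct introns. In 47 of the 54 introns the start site was on the strand of the intron and in 10 on the other strand, 3 introns holding both. All 3, picked after their values were seen, were on 2L and had 7068, 7102 and 7445 bp, the last of them with the one of 7102 bp inside it, so that these 2 introns hold the same start sites. The start sites on the strand of the intron were mostly near its 3′ end. Counted once for each intron that holds them they numbered 54, from 52 distinct sites, at a median of 0.901 of the length from the 5′ end (quartiles 0.571 and 0.959), and 37 were in the last section when introns were cut in 3 equal parts. They lay a median of 316.5 bp from the 3′ end of the intron, and 34 lay within 500 bp of it. For 36 of these 54 (66.7%, 53.4 to 77.8%) the first exon of the later transcript ran past the 3′ splice site of the intron. The other 18 had a first exon that ended inside the intron. The rule shapes these values, because a transcript that starts inside an intron and splices to the same acceptor shares an end with it, and such introns are not among the single ones. The 11 cases on the other strand, from 10 distinct sites, lay at a median of 0.436 of the length, with 7 in the middle section.

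**Figure D4:**
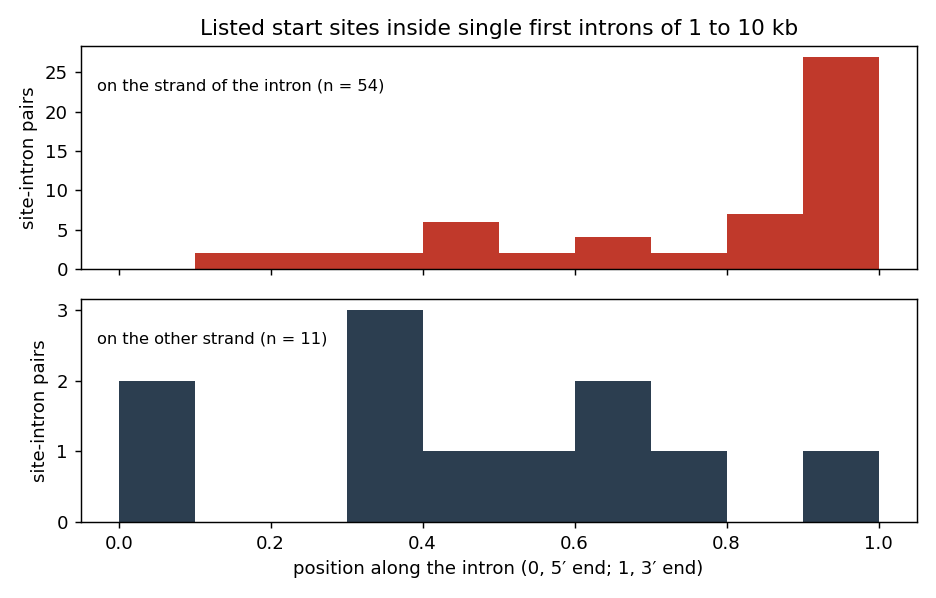
The histograms count listed start sites of transcripts with a first intron (y axis) by their position along the single introns of 1 to 10 kb. The x axis runs from 0 at the 5′ end to 1 at the 3′ end. There are 54 pairs of a site and an intron on the same strand (upper) and 11 on opposite strands (lower). The upper sites gather at the 3′ end, with a median of 0.901, whereas the few lower sites have a median of 0.436.

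Start sites on the other strand, of transcripts with a first intron, were few at any length. They were in 0 of 220 introns of 1 to 2 kb, 0 of 121 of 2 to 3 kb, 2 of 120 of 3 to 5 kb and 8 of 128 of 5 to 10 kb (6.25%, 3.20 to 11.8%). Outside the range they were in 4 of 2172 single introns under 1 kb (0.184%) and 9 of 164 of 10 kb or more (5.49%, 2.91 to 10.1%). The zeros allow shares of up to 1.36 and 2.48%, by a limit of 3 counts. For start sites on the strand of the intron the shares were 7.27, 9.09, 8.33 and 7.81% in the same order, with overlapping intervals. An example with a site on the other strand is the longest single intron of 2L, chr2L:3663307-3673177 on the plus strand, with 9871 bp and a first exon of 562 bp, of which upstream regions of other transcripts covered 41.0%.

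Bases of some of these introns were listed again as sequence upstream of another transcript. Of the 589, 190 (32.3%, 28.6 to 36.1%) shared at least 1 bp with a listed 5 kb upstream region, 129 with a region of the same strand and 71 with a region of the other strand. Regions of transcripts without a first intron, whose strand is unknown, overlapped 23. Over all distinct introns the share that overlapped an upstream region was higher, at 45.1% (43.7 to 46.5%). It was 40.15% for single introns under 1 kb and 32.3% for those of 10 kb or more. Upstream regions covered 71 of the 589 introns wholly (12.1%), among them 41 of the 220 introns under 2 kb (18.6%) and 2 of the 128 of 5 kb or more (1.56%). Over all distinct introns 27.2% were covered wholly. A motif in such a place is scanned under both headings. Of the 823 introns that shared an end, 63.8% (60.5 to 67.0%) overlapped an upstream region. For these the start site of the alternative transcript can itself lie inside the intron, as one did in 49.0% of them, against 9.17% of the single introns, a difference that the rule on shared ends itself favors.

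The single introns were spread over all arms of dm3. Arms 2R and 3R held 131 each, 2L held 123, 3L 109, X 85 and chromosome 4 held 10, with 0 on sequence outside the arms. The median length was lowest on 3L, at 2443 bp, and highest on chromosome 4, at 2904.5 bp. The medians of 2L (2678 bp), 2R (2626 bp), 3R (2605 bp) and X (2682 bp) lay within 100 bp of each other, and the 95% intervals of all 6 medians overlapped. Of the distinct introns of an arm, the single introns of 1 to 10 kb were 109 of 990 on 3L, the lowest share of the large arms, and 131 of 905 (14.5%) on 2R, the highest. On chromosome 4, a small and largely heterochromatic chromosome, the share was 10 of 38 (26.3%, 15.0 to 42.0%). This interval overlaps those of 2R (12.3 to 16.9%) and 2L (11.2 to 15.6%). It lies above those of 3L (9.21 to 13.1%), 3R (10.1 to 13.9%) and X (9.05 to 13.5%). The introns of chromosome 4 are few, and the difference was not tested. The scrib1 clones and the control clones were both homozygous on 3R distal to FRT82B, and 3R held 22.2% of the single introns (19.1 to 25.8%) and 23.2% of all distinct introns. The pairing placed 302 introns (51.3%, 47.2 to 55.3%) on the plus strand.

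**Figure D5:**
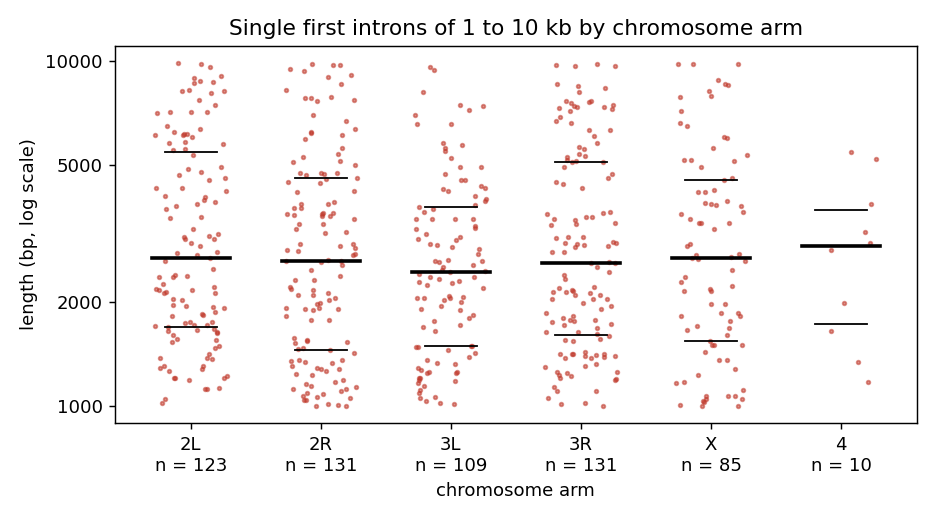
Each point is a single first intron of 1 to 10 kb, plotted by its length in bp (y axis, log scale) and chromosome arm (x axis), with thick lines at the median and thin lines at the quartiles. Medians lie between 2443 bp on 3L and 2904.5 bp on chromosome 4, and the spread within each arm is much wider than the differences between arms.

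The shortest of these introns on 2L was chr2L:16675553-16676570, on the minus strand, with 1018 bp and a first exon of 96 bp. On 3L it was chr3L:19641526-19642540 (minus strand, 1015 bp), on 3R chr3R:15038205-15039205 (plus strand, 1001 bp) and on X chrX:2814419-2815418 (plus strand, 1000 bp), with first exons of 411, 290 and 267 bp. None of these 4 overlapped another first intron or an upstream region. The longest on X was chrX:13034081-13043911, on the plus strand, with 9831 bp, 1 row and a first exon of 842 bp.

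Along the arms the single introns were mostly far apart. The median gap from one to the next was 114538 bp, and the quartiles lay at 31675.5 and 266692.5 bp. In 60 of 583 gaps (10.3%, 8.08 to 13.0%) the gap was under 10 kb, overlaps included. On the arms whose positions are printed, the 100 kb with the most held 5 of them, over 80130 bp from chr2L:16675553 to 16755682. These began with the shortest intron of 2L, followed after a wide gap by 4 introns on the plus strand of 2908, 2032, 1377 and 1284 bp and first exons of 360, 103, 343 and 63 bp. The first of these 4, chr2L:16716218-16719125, lay wholly within listed upstream regions, and the other 4 introns overlapped none.

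The lengths were also sorted by their remainder after division by 3, since an intron whose length is a multiple of 3 keeps the reading frame when it is retained, unless it brings a stop codon. Multiples of 3 made up 189 of 589 (32.1%, 28.4 to 36.0%). A remainder of 1 was found for 228 (38.7%, 34.9 to 42.7%) and a remainder of 2 for 172 (29.2%). The reading frame bears only on introns of the coding sequence, whereas the 589 include introns of the 5′ untranslated region. Among the introns placed by both lengths, 51 of the 131 after the start codon and 49 of the 157 before it were multiples of 3. This difference was not tested. Remainders of 1 were 35.4% of all distinct introns in the list (34.1 to 36.8%), an interval that overlaps that of the single introns.

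The same rule was applied to the annotated first introns of BDGP6 to set the list beside a later annotation. Of 19325 distinct first introns of protein-coding transcripts on the arms, 1490 (7.71%, 7.34 to 8.10%) were single and of 1 to 10 kb, against 12.4% in the list. The annotation holds all transcripts of a later release, so the shares are not on an equal footing. Whether an intron meets more partners there, that is introns with a shared end, was not tested. The direction turned when the longest first intron of each annotated gene was taken, with 20.1% (19.4 to 20.8%), since 96.9% of those in the range were then single. The list was not reduced to 1 intron per gene, so this share is not on an equal footing with it either. Of the annotated introns in that range of length, 30.9% were single, against 41.7% in the list. The range of length itself, which does not turn on partners, held 24.9% of the annotated and 29.7% of the listed distinct introns. It held 20.7% of the longest first introns per annotated gene. Annotated single introns of 1 to 10 kb had a median length of 2559 bp (quartiles 1541.25 and 4537.25 bp), against 2620 bp (1566 and 4580 bp) in the list, and a remainder of 1 in 35.1%. Which of these annotated genes were expressed in the discs, and could have been scored as regulated, was not analysed here.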

How the data were processed

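Whole EAD were sequenced as RNA. Reads were aligned by the authors with Tophat (BDGP R5/dm3), and Cufflinks and DESeq2 served for quantification. The 2 deposited lists hold genome positions, of 5 kb upstream regions and of first introns, and no expression value. Libraries were grouped by the genotype in their titles.

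Distinct rows of 1 kb to just under 10 kb that shared neither end with another were kept. Positions are counted from 1. Because the rows of both lists run in parallel, each of the 6232 intron rows was joined in order to 1 of the 6947 upstream rows, within 20 kb, with the smallest summed log10 distance. The procedure was checked on lists made from annotated genes.

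Lengths from the BDGP6 annotation (Ensembl) served for matching. Positions were not compared between builds, and no gene was named, since the lists carry no names. Introns printed with positions follow a rule: the longest and shortest per arm, the 5 with most rows and the 5 with most start sites, and the fullest 100 kb, without positions on 2R. Members, measures and alternatives were chosen with earlier results of these data known. Shares carry 95% Wilson intervals, and no tests were made. Alternatives changed the rule, the overlap, the pairing, the unit counted and the annotated set. Python 3.11.15, numpy 2.4.6, pandas 2.3.3, scipy 1.17.1 and matplotlib 3.10.9 were used.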

Additional observations from a re-analysis of the deposited data

How the results depend on the processing

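No paired analysis was possible because the lists used hold positions and no measurement by library. Leave-one-out values could not be had either. Including introns that share an end moved the values that follow and left median length, multiples of 3 and the shares of the other arms in place. The number became 1412 in place of 589, the share with more than 1 row 25.3% (30.6%), the share overlapping an upstream region 50.6% (32.3%), the share on chromosome 4 0.8499% (1.70%) and, chosen after seeing the data, the share holding a start site 32.4% (9.17%). Counting rows gave a median length of 2930 bp (2620 bp). Summed lengths gave 15.35% of intron sequence (20.7%). Pairing with the nearest region gave 0% with more than 1 start site (3.57%), by construction, since all rows of an intron then take 1 region. An overlap of 1000 bp gave 27.5% (32.3%) and a gap of 5 kb gave 5.83% (10.3%), both stricter by construction. The longest first intron per annotated gene gave 20.1% (7.71%), above and no longer below the 12.4% of the list. This rise comes largely by construction, since with 1 intron per gene few introns can share an end. The list was not reduced in the same way. Number, length, strand, first exon and arm shares otherwise stayed within 1.5 times (number) or the 95% interval.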
